A study of Mus musculus with 6 samples.

Results

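Interferon-high tumor cells were 224 of the 22681 cells in the 6 deposited tables and of the 2210 cells taken as tumor cells. They were selected on measured values, as the tumor cells whose summed UMIs of Ifit1, Ifit3, Isg15 and Ifitm3, per 10000 UMIs of the cell, were at or above the 90th percentile of the tumor cells of the same tumor. A UMI (unique molecular identifier) counts a captured RNA molecule once. A cell was taken as a tumor cell when it had at least 200 genes, at most 25% mitochondrial UMIs, at least 3 of Meg3, Serpinh1, Col1a2, Id3, Prrx1 and Crabp1 detected, and under 10 UMIs per 10000 of the leukocyte genes Tyrobp, Fcer1g and Ptprc. The high cells numbered 10 in mouse 1172, 2 in mouse 1177, 134 in mouse 1232, 6 in mouse 1148, 7 in mouse 568 and 65 in mouse 593. They were compared with the 1103 tumor cells below the median of the same tumors, and the 883 cells between the median and the 90th percentile are called middle cells below.

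The tumors were Smarcb1-deficient rhabdoid tumors of the MYC subgroup, 3 of the spine (MYC spinal, mice 1172, 1177 and 1232) and 3 outside the cranium (eRT, from a gland in mouse 1148, the jaw in mouse 568 and the shoulder in mouse 593). All mice carried Smarcb1 fl/fl alleles deleted by a tamoxifen-inducible Cre after dams received tamoxifen early in gestation. Cre was driven by the ubiquitous Rosa26 promoter in mice 1172, 1177, 1232 and 1148 (Rosa26-cre) and by the Sox2 promoter in mice 568 and 593 (Sox2-cre), so subtype and mouse model were partly confounded. The mice were 19, 26 and 17 weeks old for MYC spinal and 17, 29 and 22 weeks old for eRT, each tumor is 1 library from 1 animal, and no Smarcb1-proficient or untreated control was among these samples.

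Type I interferons (IFN-alpha, IFN-beta) and type II interferon (IFN-gamma) are secreted cytokines that signal through receptor-bound JAK kinases to transcription factors in the nucleus. Complexes that hold STAT2 and IRF9 bind interferon-stimulated response elements, whereas IFN-gamma acts chiefly through GAS elements. The induced genes include antiviral effectors such as the Ifit, Oas and Ifitm families, the ubiquitin-like modifier Isg15, guanylate-binding GTPases, and the machinery that loads peptides onto MHC class I.

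Promoters that hold an interferon-stimulated response element are shown for 3 of the genes that selected the cells and for Gbp2 and Igtp, called higher below, which were picked for holding it. The stretches run from 150 bases before to 50 bases after the RefSeq start site (build GRCm38.p6, written 5′ to 3′ on the strand of the gene). Capitals mark matches to GAAANNGAAA, the core of an interferon-stimulated response element, on either strand. The windows are Ifit1 at chr19:34640739-34640938 (+ strand), Isg15 at chr4:156200769-156200968 (- strand), Ifitm3 at chr7:141010695-141010894 (- strand), Gbp2 at chr3:142620513-142620712 (+ strand) and Igtp at chr11:58199406-58199605 (+ strand).
Ifit1: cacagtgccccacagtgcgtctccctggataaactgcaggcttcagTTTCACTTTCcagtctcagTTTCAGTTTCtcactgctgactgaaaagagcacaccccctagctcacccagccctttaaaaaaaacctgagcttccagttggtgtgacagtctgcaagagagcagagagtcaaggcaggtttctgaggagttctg
Isg15: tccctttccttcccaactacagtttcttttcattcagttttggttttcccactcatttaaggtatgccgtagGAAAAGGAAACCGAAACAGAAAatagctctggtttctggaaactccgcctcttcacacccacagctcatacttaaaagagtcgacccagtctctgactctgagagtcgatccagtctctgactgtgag
Ifitm3: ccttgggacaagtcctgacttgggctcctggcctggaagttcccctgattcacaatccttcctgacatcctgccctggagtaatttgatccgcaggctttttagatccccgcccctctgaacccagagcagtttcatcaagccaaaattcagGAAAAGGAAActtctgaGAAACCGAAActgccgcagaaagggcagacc
Gbp2: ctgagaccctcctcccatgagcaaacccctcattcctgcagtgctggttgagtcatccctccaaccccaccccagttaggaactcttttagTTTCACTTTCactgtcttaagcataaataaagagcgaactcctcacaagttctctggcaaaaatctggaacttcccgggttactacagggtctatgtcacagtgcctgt
Igtp: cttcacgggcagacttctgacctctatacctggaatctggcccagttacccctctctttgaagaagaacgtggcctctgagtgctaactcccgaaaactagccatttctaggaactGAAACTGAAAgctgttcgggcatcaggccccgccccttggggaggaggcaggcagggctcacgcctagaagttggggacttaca
In Isg15, 3 overlapping matches form the run of capitals. In Ifitm3 the matches lie just after the start site, in the other stretches before it.

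Over the full RefSeq windows of 250 bases before to 50 after the start, the motif was present for 4 of the 4 genes of the score and for 1079 of 27025 genes in the table (3.99%). Of the 33 genes called higher below, 23 had a promoter in the table and 10 of these held it (Bst2, Cxcl10, Gbp2, H2-T22, Ifit3b, Ifitm2, Igtp, Oas1a, Stat2 and Trim30a). All 10 were in the interferon gene lists, of which 18 called members had a promoter, and 0 of the 5 other called genes held it. Among all tested genes the share was 4.29% of 3564. The GAS-like motif TTCNNNGAA, read the same on both strands, was in 5 of the 23 promoters (Bst2, Ifi35, Igtp, Oas1a and Psmb8) and in 9.55% of all genes. A match is a stretch of letters and not a measured binding site.

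The score differed between tumors before any comparison. The 90th percentile lay at 127 UMIs per 10000 in mouse 1172, 35.8 in 1177, 53.1 in 1232, 105 in 1148, 64.9 in 568 and 61.5 in 593, and the median at 57.6, 29.6, 20.5, 51.7, 26.9 and 33.1. Thus a cell at the cut of mouse 1232 would have been below the median of mouse 1172. The cells just inside and just outside the cut differed little, with scores of 129 and 124 in mouse 1172, 35.8 and 35.5 in 1177, 53.1 and 52.9 in 1232, 105 and 103 in 1148, 67.6 and 64.2 in 568, and 61.54 and 61.47 in 593. The highest cell reached 417 in mouse 1172 and 227 in mouse 1232. The high cells are thus the upper end of a range, and 129 of the 2210 tumor cells had a score within 10% of the cut of their tumor.

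**Figure D1:**
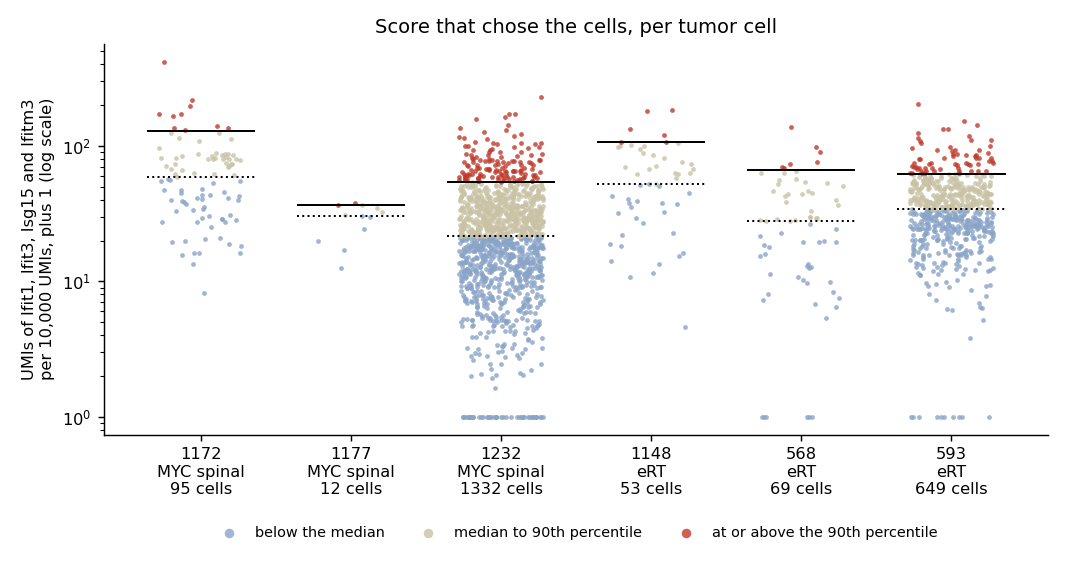
Score of each of the 2210 tumor cells (y axis, UMIs of Ifit1, Ifit3, Isg15 and Ifitm3 per 10000 UMIs, plus 1, on a log scale) by tumor (x axis). Solid lines are the 90th percentile and dotted lines the median of each tumor, and points at the bottom are cells with a score of 0. The cut of mouse 1177 (35.8) lies close to its median (29.6), and the cuts of mice 1172 and 1148 lie above those of the other tumors.

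Values of the 4 genes are given as CPM, the UMIs of a gene summed over the cells of a group and divided by all UMIs of that group, scaled to counts per 1000000, in the order 1172, 1177, 1232, 1148, 568 and 593, and since these genes selected the cells they carry no test. Ifit1, an RNA-binding antiviral protein, was at 4149, 0, 1623, 2053, 1825 and 524 CPM in high cells and at 342, 0, 32.9, 64.8, 17.0 and 23.7 CPM in below-median cells. Ifit3, of the same family, was at 2047, 0, 214, 1183, 123 and 44.0 CPM against 190.3, 0, 6.59, 59.8, 17.0 and 1.28 CPM. Isg15, a ubiquitin-like modifier, was at 3983, 0, 1714, 3477, 1874 and 511 CPM against 708, 86.4, 96.5, 463, 62.2 and 79.95 CPM. Ifitm3, a membrane protein that blocks virus entry, was at 8003, 3626, 4116, 6327, 5302 and 7025 CPM against 2051, 2073, 889, 2287, 1148 and 2131 CPM. In mouse 1177 the score was Ifitm3 alone, and in mouse 593 it was mostly Ifitm3.

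The label of an interferon-high state therefore did not hold equally in all tumors. Ifitm3 gave 44.0% of the score UMIs of the high cells in mouse 1172, 53.7% in 1232, 48.5% in 1148, 58.1% in 568, 86.7% in 593 and 100% in 1177. None of Ifit1, Ifit3 and Isg15 was detected in 2 of the 2 high cells of mouse 1177 and in 34 of the 65 of mouse 593 (52.3%), against 13 of 134 in mouse 1232 and 0 in mice 1172, 1148 and 568. All 4 genes were detected in 10 of 10 high cells of mouse 1172, 6 of 6 of 1148, 42 of 134 of 1232, 2 of 7 of 568, 3 of 65 of 593 and 0 of 2 of 1177. In mouse 593 the rule thus mostly took cells with high Ifitm3, and in mouse 1177 it took such cells alone.

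The part of these differences that comes from picking cells on their own counts was seen by choosing cells on a random 50% of their UMIs and measuring the genes in the rest. Ifit1 then stood 10.9 times higher in high cells in mouse 1172, 27.9 times in 1232, 19.2 times in 1148 and 21.9 times in 593. Ifit3 stood 10.7, 53.8 and 9.14 times higher in mice 1172, 1232 and 1148. It had 7 UMIs in high and 0 in below-median cells of mouse 568, and 1 in each group of mouse 593, where no excess could be read. Isg15 stood 5.19, 10.6, 5.98, 21.3 and 7.30 times higher in mice 1172, 1232, 1148, 568 and 593. Ifitm3 stood 3.59, 3.49, 3.18, 2.85 and 2.41 times higher in the same mice, and in mouse 1177 the ratio was 1.01, at 3053 against 3025 CPM. The excess of Ifitm3 in the high cells of mouse 1177 was thus not seen in UMIs that had not chosen the cells, on 10 and 30 UMIs.

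As a check of the tumor cell label, Smarcb1, the deleted gene, had 1 UMI in all high cells together (mouse 1232, 1.98 CPM) and 0 in the other tumors. The immune cells of the same tables were at 23.9 to 59.6 CPM. The 0 counts allow up to 55.3, 518, 72.4, 74.0 and 13.2 CPM in mice 1172, 1177, 1148, 568 and 593 (3 counts over the UMIs of the group), so the low level could be read in mice 1232 and 593. In mice 1177, 1148 and 568 the limit is above the level of the immune cells, and in mouse 1172 it is close to it (56.6 CPM). Below-median cells were at 0, 0, 1.77, 0, 5.65 and 5.76 CPM.

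Genes other than the 4 were tested between high and below-median cells by edgeR's quasi-likelihood test on summed UMIs with tumor as a block, in the 3 tumors with at least 10 high cells (mice 1172, 1232 and 593). Of 4580 genes tested, 33 were higher (0.721%) and 2 were lower (0.0437%) in high cells at a Benjamini-Hochberg adjusted p under 0.05, and 24 of the 33 were in the interferon lists. The number rests on single tumors, being 182 without mouse 1172 (27 interferon-list genes higher), 17 without mouse 1232 (6 of them) and 80 without mouse 593 (42 of them). DESeq2 called 36 higher and 21 lower of 3619 genes, and edgeR without TMM factors 34 higher and 0 lower. The tumors are separate animals. With tumor as a block, the p-values measure how the difference between high and below-median cells varies between animals, not the spread of levels between them.

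The 9 interferon lists held 127 genes, 114 of them in the tables and 68 of them tested. Of these, 24 were higher and 0 lower in high cells, and their median log2 fold change was 1.06 against -0.0024 over all tested genes. The fold change was above 0 for 65 of the 68. The filter on low values (25.5 CPM in at least 3 libraries) can be met through high cells alone, so these counts do not stand for all members. In below-median cells alone, 23 of the 68 met it, 6 of them were called higher and their median was 0.53, against -0.04 over the 3160 genes that did so. Of the 33 genes called higher 6 met it there (Bst2, Ifi27l2a, Ifi35, Ifitm2, Psmb8 and Trim30a). The rest met it only with libraries of high cells counted, among them Irf7, Usp18, Gbp2, Iigp1, Igtp, Ifi47, Ifit3b and Plac8. They were tested in part because they were high there, so their fold changes and p-values below are descriptive. When every gene of at least 1 UMI was tested, on the same counts, 33 of the 33 were called again, among 97 higher and 133 lower. The other 59 genes of the interferon lists were absent from the tables or had too few UMIs to be tested.

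**Figure D2:**
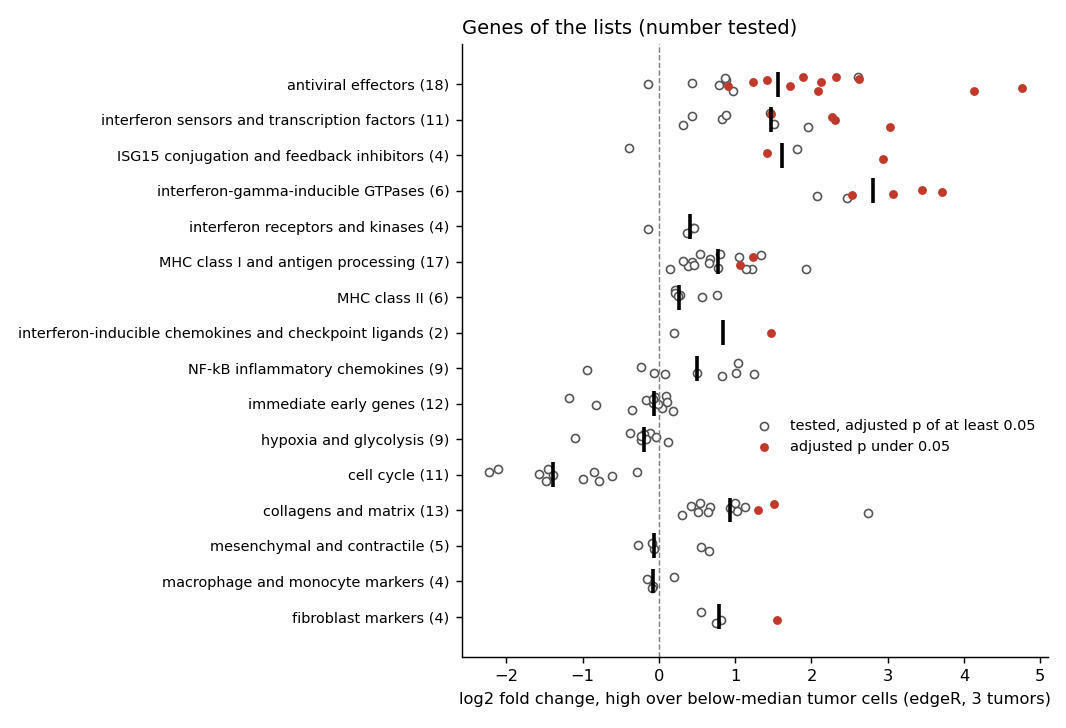
Log2 fold change of each tested gene (x axis, high over below-median tumor cells, edgeR, 3 tumors) by gene list (y axis, number of tested genes in parentheses). Filled points passed an adjusted p under 0.05, bars are list medians and the dashed line is the median of all 4580 genes. The interferon-gamma-inducible GTPases have the highest median (2.80) and the cell cycle list the lowest (-1.39). Genes could meet the filter on low values through high cells or through below-median cells, so the medians do not rank the lists.

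Among the transcription factors of the pathway, Irf7, the regulator that amplifies type I interferon production, and Stat2 were higher in high cells. Irf7 was at 664, 0, 194, 579.6, 419 and 61.6 CPM in high cells and 98.7, 0, 19.5, 135, 0 and 7.04 CPM in below-median cells. High cells exceeded below-median cells in 5 of 6 tumors, and in mouse 1177 no UMI was seen in either group. The log2 fold change over the 3 tested tumors was 3.03 (SE 0.25, edgeR adjusted p = 0.000242). Irf7 passed the threshold in 19 of 20 alternative settings, all but the fit without the tumor block. The settings share tumors and cells, so they are not independent of each other. Irf7 reached the cutoff of the filter in only 1 below-median library, so this count is descriptive as well.

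Stat2 was at 203, 0, 49.5, 193, 98.6 and 30.8 CPM against 24.7, 0, 10.4, 14.9, 5.65 and 8.32 CPM. Like Oasl1 below, Stat2 reached the cutoff of the filter in 0 below-median libraries, so its fold change is not given. Irf9, its DNA-binding partner, did not pass, at 55.3, 0, 53.5, 121, 74.0 and 22.0 CPM against 91.6, 43.2, 32.9, 24.9, 22.6 and 16.0 CPM (log2 fold change 0.31, SE 0.36, edgeR adjusted p = 0.892). Stat2 had the higher value in high cells in each tumor with a UMI in either group, whereas Irf9 had the lower value there in mouse 1172, on 3 UMIs, and in mouse 1177, with no UMI. Of the 11 tested sensors and transcription factors, 4 were higher, among them Irf7, Stat2 and Ifi35, and all 11 had fold changes above 0. Ifih1, the MDA5 sensor of double-stranded RNA, had a log2 fold change of 1.95 and an edgeR adjusted p of 0.167.

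Antiviral effectors were the largest called group, with 11 of 18 tested genes higher and a median log2 fold change of 1.57. Of these 11, 4 met the filter on low values in below-median cells alone. Oasl1, which restrains Irf7 translation, was at 498, 0, 31.7, 362, 98.6 and 26.4 CPM in high cells and 10.6, 0, 2.03, 0, 0 and 0 CPM in below-median cells. It had 3, 8 and 0 UMIs in the below-median cells of the tested tumors, so it reached the test only through the high cells and its fold change is not given. Ifit3b, a near-identical copy of the score gene Ifit3, was at 572, 0, 59.4, 241, 98.6 and 8.80 CPM against 63.4, 0, 0.507, 0, 0 and 1.28 CPM (log2 fold change 4.13). Ifit1 (chr19:34640871-34650009, GENCODE on GRCm38, + strand) and Ifit3b (chr19:34607970-34613401, + strand) lie close together, and reads of Ifit3 and Ifit3b could have been split between the copies.

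Ifi27l2a, a small protein induced by type I interferon, was at 20542, 345, 7494, 7389.5, 5672 and 2539.8 CPM in high cells and 11060.0, 0, 1974, 2536, 1317 and 846 CPM in below-median cells. High cells were above in 6 of 6 tumors, in mouse 1177 on 2 UMIs, with a log2 fold change of 1.41 (SE 0.16, edgeR adjusted p = 0.00152). Bst2, the tetherin that holds budding virus at the membrane, was at 2784, 173, 2053, 1642, 962 and 374 CPM against 1254, 216, 958, 583, 192 and 248 CPM (log2 fold change 0.91). The other effectors called higher were Zbp1, Rtp4, Oasl2, Oas1a, Trim30a, Xaf1 and Ifitm2, at log2 fold changes of 1.23 to 2.62.

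The Ifitm genes are close copies of each other. Ifitm2 was at 4702, 2244, 886, 1739, 3058 and 3917 CPM against 3125, 1382, 229, 1400.0, 1459 and 1586 CPM, higher in 6 of 6 tumors. Ifitm1 did not pass (log2 fold change 2.61, SE 0.58, edgeR adjusted p = 0.0875), with 36.9, 6561, 127, 24.1, 3206 and 1492 CPM against 127, 3153, 22.6, 19.9, 837 and 86.3 CPM. Ifitm1 was thus abundant in mice 1177, 568 and 593 and scarce in mice 1172, 1232 and 1148. UMIs of Ifitm1, Ifitm2 and Ifitm3 could have been exchanged between the copies in counting.

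Of the genes for ISG15 conjugation and feedback, 2 of 4 tested were higher. Usp18, the protease that removes ISG15 and dampens the type I receptor, was at 811, 0, 109, 579.6, 98.6 and 17.6 CPM in high cells and 84.6, 0, 17.2, 64.8, 0 and 0.640 CPM in below-median cells. The groups were apart in every tumor with a UMI, and the log2 fold change was 2.94 (SE 0.31, edgeR adjusted p = 0.000855). Ube2l6, the E2 enzyme that loads ISG15, was at 498, 0, 93.1, 96.6, 197 and 52.8 CPM against 141, 0, 36.5, 29.9, 17.0 and 22.4 CPM (log2 fold change 1.41).

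The GTPases induced mainly by IFN-gamma had a median log2 fold change of 2.80, with 4 of 6 tested genes higher and all 6 above 0. The 4 called (Gbp2, Iigp1, Igtp and Ifi47) each reached the cutoff of the filter in only 1 below-median library. They were thus tested because of their level in high cells, and the median does not rank this list against the others. Gbp2, a guanylate-binding protein that acts on pathogen vacuoles, was at 1143, 0, 254, 266, 247 and 83.6 CPM against 77.5, 0, 16.5, 59.8, 11.3 and 17.9 CPM (log2 fold change 3.45, SE 0.31, edgeR adjusted p = 0.000242). Iigp1, an immunity-related GTPase, was at 1549, 0, 81.2, 459, 123 and 26.4 CPM against 98.7, 0, 4.56, 39.9, 0 and 5.76 CPM (log2 fold change 3.72). In both genes every tumor except 1177, which had no UMI, showed the higher value in high cells. Igtp and Ifi47 were also higher, at log2 fold changes of 2.53 and 3.07, and Gbp7 had a log2 fold change of 2.46 with an edgeR adjusted p of 0.0755. In mouse 593, Ifi47 had 1 UMI in high and 5 in below-median cells.

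No gene of the interferon receptors and kinases was called (0 of 4 tested by edgeR, 0 at an unadjusted p under 0.05 and 0 called by DESeq2, median log2 fold change 0.41). Jak1 was at 295, 0, 71.3, 24.1, 173 and 74.8 CPM against 208, 86.4, 48.7, 79.7, 158 and 53.7 CPM, overlapping between groups. Of the interferon genes themselves, 3 of 9 were in the tables and none had enough UMIs to be tested. Ifnb1 had 1 UMI in the high cells, 2 in all tumor cells and 34 in the immune cells, and Ifng had 0, 5 and 159 UMIs. Ligand RNA was too sparse at this depth to be compared between the groups.

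All 17 tested genes of MHC class I and antigen processing had fold changes above 0 (median 0.77), and 2 of them were called higher, the immunoproteasome subunit Psmb8 and the nonclassical class I gene H2-T22. Psmb8 was at 1567, 0, 468, 1135, 197 and 39.6 CPM against 476, 86.4, 208, 224, 50.9 and 26.2 CPM (log2 fold change 1.23, SE 0.23, edgeR adjusted p = 0.0291). H2-T22 was at 609, 0, 259.6, 435, 369.9 and 35.2 CPM against 289, 43.2, 109, 125, 39.6 and 20.5 CPM (log2 fold change 1.06), and it belongs to a family of close copies. Psmb8 and H2-T22 were thus higher in 5 of 6 tumors.

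The classical class I genes did not pass. H2-D1 was at 2932, 518, 2178, 3043, 715 and 357 CPM against 1603, 86.4, 1810.4, 1375, 339 and 315 CPM (log2 fold change 0.38, SE 0.17), and H2-K1 had a log2 fold change of 0.53 (SE 0.25). B2m, the invariant light chain, was at 4813, 1727, 6315, 4298, 2959 and 1039 CPM against 2593, 605, 4295, 2297, 656 and 1019.5 CPM (log2 fold change 0.44, SE 0.17, edgeR adjusted p = 0.393). B2m and H2-D1 had the higher value in high cells in 6 of 6 tumors, by little in mouse 593. Of MHC class II, 0 of 6 tested genes were called by edgeR (median 0.26), with 0 at an unadjusted p under 0.05 and 0 called by DESeq2.

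Cxcl10, a chemokine that attracts T cells through CXCR3, was the called member of the chemokine and checkpoint list (1 of 2 tested). It was at 1401, 0, 648, 773, 0 and 0 CPM in high cells and 398, 43.2, 249.9, 0, 45.2 and 1.92 CPM in below-median cells. The log2 fold change was 1.47 (SE 0.25, edgeR adjusted p = 0.0161), and it rests on mice 1172 and 1232, since the high cells of mice 1177, 568 and 593 had no UMI. By edgeR the NF-kB list had 0 of 9 called (2 higher and 1 lower at an unadjusted p under 0.05). The immediate early genes had 0 of 12 called (2 lower unadjusted) and the hypoxia and glycolysis genes 0 of 9 (1 lower unadjusted). Of all tested genes, 4.83% were higher and 5% lower at that p. DESeq2 called Ccl2 of the NF-kB list lower and no immediate early, hypoxia or glycolysis gene.

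Of the 33 genes called higher, 9 were outside the interferon lists, among them Plac8, AW112010, Gm4951 and Slfn2. Plac8, a cysteine-rich protein found in myeloid and other cells, was at 2360.3, 0, 202, 1859, 222 and 22.0 CPM against 810.4, 648, 19.0, 767, 73.5 and 2.56 CPM (log2 fold change 2.42, SE 0.34, edgeR adjusted p = 0.00636). AW112010, a transcript first annotated as noncoding, was at 295, 1381, 198, 24.1, 98.6 and 145 CPM against 70.5, 475, 13.4, 14.9, 11.3 and 34.5 CPM (log2 fold change 2.78), higher in 6 of 6 tumors, on 1 UMI in mouse 1148. Gm4951 and Slfn2 were higher in 5 of 6 tumors, at log2 fold changes of 2.47 and 2.08. The immune cells of mouse 1172 held AW112010 at 3072 CPM.

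The matrix proteoglycan genes Dcn and Lum, the growth factor Ptn, the calcium-binding S100a5 and the surface antigen Ly6a made up the rest, and their levels varied between tumors. Dcn was at 424, 0, 1.98, 72.4, 617 and 841 CPM against 119.8, 43.2, 0.760, 389, 814 and 384 CPM (log2 fold change 1.30). Ptn was at 0, 2417, 39.6, 0, 345 and 497 CPM against 10.6, 4017, 10.4, 319, 84.8 and 76.1 CPM (log2 fold change 2.24). Dcn had the lower value in high cells in mice 1177, 1148 and 568, and Ptn in mice 1172, 1177 and 1148, in mouse 1172 on 3 UMIs. Of the collagen and matrix list, 2 of 13 tested genes were called (Dcn and Lum) and all 13 were above 0, with a median of 0.93. The summed level of the list was higher in high cells in only 3 of 6 tumors. It was lower in mouse 1172 (6804 against 8900 CPM), mouse 1148 (2246 against 4454 CPM) and mouse 568 (8089 against 9023 CPM). With every tumor in the fit 0 of 12 tested genes of the list were called. In the fit over 6 tumors none of Dcn, Lum, Ptn, S100a5 and Ly6a passed.

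Lower in high cells were Hmgb2, a chromatin protein abundant in dividing cells, and 2700094K13Rik, and neither passed without TMM factors (edgeR adjusted p = 0.0831 for both). Hmgb2 was at 332, 173, 81.2, 72.4, 49.3 and 66.0 CPM in high cells and 588, 605, 190.1, 89.7, 153 and 127 CPM in below-median cells, lower in 6 of 6 tumors, a log2 fold change of -1.09 (SE 0.21, edgeR adjusted p = 0.0409). 2700094K13Rik had a log2 fold change of -1.19 (SE 0.23). Of the cell cycle list 0 of 11 tested genes passed by edgeR and 0 by DESeq2, all 11 had fold changes below 0, 9 with an unadjusted p under 0.05 (5% of all tested genes were lower at that p), and the median was -1.39. Top2a, a topoisomerase of dividing cells, was at 0, 173, 17.8, 0, 24.7 and 17.6 CPM against 74.0, 43.2, 34.0, 9.96, 5.65 and 44.1 CPM.

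**Figure D3:**
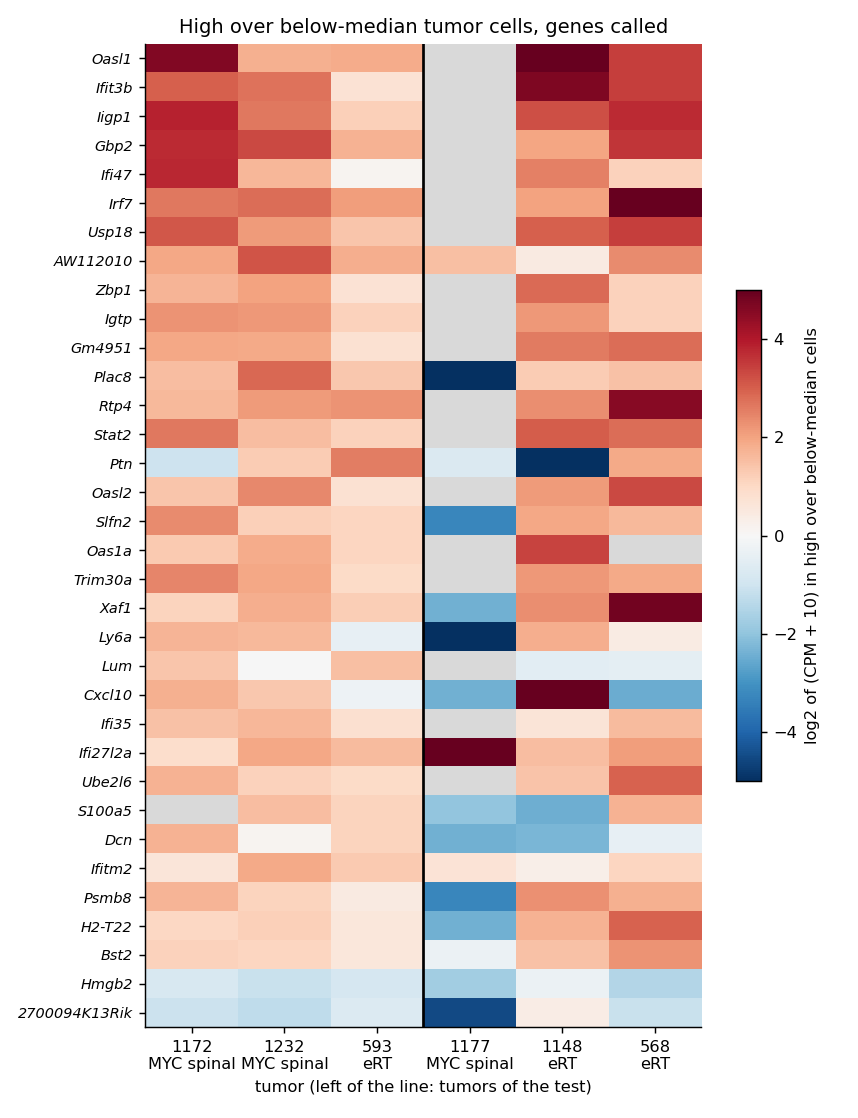
Log2 ratio of high over below-median tumor cells (color, CPM plus 10 in each group) for 34 of the 35 genes called (rows, ordered by fold change) in each tumor (columns). Tumors left of the line entered the test, and grey marks genes with no UMI in either group. Of the 32 genes drawn that were called higher, 28 are above 0 in mouse 1148, 28 in mouse 568 and 3 in mouse 1177.

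The same genes were read in the tumors outside the test. In mouse 1148, 29 of the 33 had the higher value in high cells, while 42.3% of all tested genes with a UMI did. In mouse 568 it was 29 of 32 with a UMI, against 47.8% of all tested genes. In mouse 1177 it was 3 of 14 with a UMI, against 35.7%, so the pattern was not seen in the 2 cells selected there. With 3 counts at 518 CPM in these cells, its absence cannot be told. Mice 1148, 568 and 1177 had 6, 7 and 2 high cells.

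Middle cells lay between the other groups for most of the called genes. The CPM was ordered below-median, middle, high, from low to high, for 27 of the 33 genes in mouse 1172, 31 in 1232, 25 in 1148, 25 in 568 and 20 in 593, and for 2 in 1177. Summed over the 33 genes, the below-median, middle and high cells stood at 19756, 23040 and 46653 CPM in mouse 1172, and at 4620.4, 9151 and 15944 CPM in mouse 1232. In mouse 1148 the sums were 9750.4, 17996 and 26539.5 CPM, in mouse 568 they were 5032, 10301 and 15388 CPM, and in mouse 593 they were 3634, 4626 and 9662 CPM. In mouse 1177 they were 10236, 13191 and 7251 CPM, with the lowest value in high cells.

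Compared with the immune cells of the same tumor, 28 of the 33 genes had the higher level in high cells of mouse 1172, 29 in 1232, 30 in 1148, 22 in 568, 24 in 593 and 4 in 1177, whereas 62.2%, 64.2%, 48.8%, 57.9%, 69.0% and 28.2% of all tested genes did in the same order. In below-median cells 12, 14, 16, 6, 11 and 10 of the 33 had the higher level, in the same order of tumors. Of all tested genes 72.7%, 65.3%, 60.5%, 65.6%, 67.8% and 49.0% did. The 33 genes had been called for being higher in high cells, so these counts are a description. Iigp1 was at 51.3, 0, 1.44, 4.85, 7.49 and 1.06 CPM in immune cells, below the high tumor cells in 5 of 6 tumors. AW112010 had the higher level in immune cells in mice 1172, 1148, 568 and 593.

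**Figure D4:**
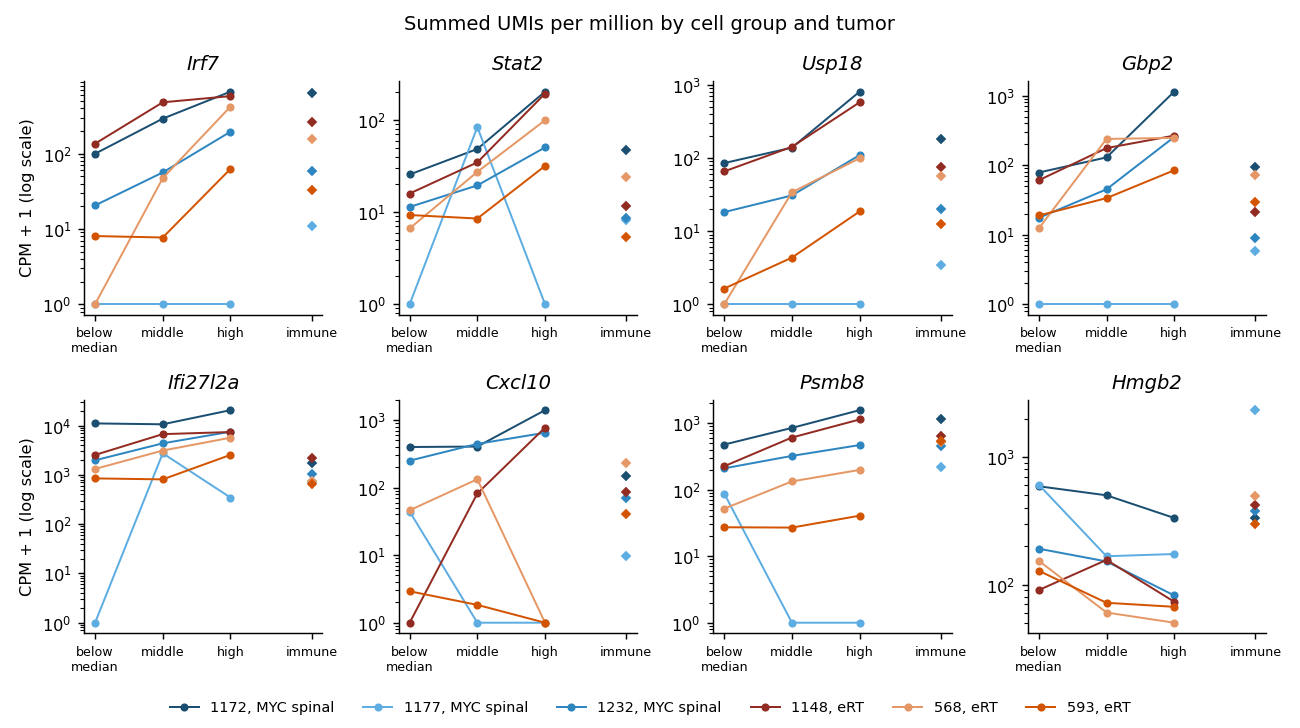
Levels of 8 genes (y axis, CPM plus 1, log scale) in below-median, middle and high tumor cells (lines) and in immune cells (diamonds) of each tumor (color). Irf7, Usp18 and Gbp2 stand at 664, 811 and 1143 CPM in the high cells of mouse 1172, and Hmgb2 is lower in high than in below-median cells in 6 of 6 tumors.

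Markers of other cell types were read in the same cells. Of the macrophage and monocyte markers 0 of 4 tested genes were called by edgeR (0 at an unadjusted p under 0.05, 0 by DESeq2, median -0.08), their summed level ran from 148 to 783 CPM in high cells, 176 to 775 CPM in below-median cells and 8935 to 46603 CPM in immune cells, and Mrc1 was at 0 in the high cells of all 6 tumors. T and NK cell markers summed to at most 173 CPM in high cells, with Cd3e, Cd8a, Ncr1 and Prf1 at 0. Neutrophil markers reached 5352 CPM in the high and 24013 CPM in the below-median cells of mouse 1177, whose immune cells stood at 147370 CPM. Of the fibroblast markers 1 of 4 tested was called (Ly6a), and all 4 were above 0 (median 0.79). By edgeR 3 of the 4 were higher at an unadjusted p under 0.05, as were 4.83% of all tested genes, and DESeq2 called 0. Their sum was higher in high cells in 4 of 6 tumors (mice 1172, 1232, 1148 and 593) and lower in mice 1177 and 568. It ran from 173 to 5313 CPM in high and from 561 to 2322 CPM in below-median cells. Pericyte and smooth muscle markers, none of them tested, summed to 652 CPM in the high and 14.9 CPM in the below-median cells of mouse 1148, and in the high cells all 27 UMIs were of Cnn1. Epithelial markers, none of them tested, stood at 863 against 204 CPM in mouse 568, with all 35 UMIs of the high cells from Krt18, and at 2850 against 3029 CPM in mouse 1148. In the other tumors epithelial markers reached at most 55.3 CPM in high cells. With cells limited to those without a UMI of Tyrobp, Fcer1g or Ptprc, mouse 1172 fell below 10 high cells, and 6 genes were called in mice 1232 and 593, 2 of them in the interferon lists, against 182 and 27 in the same tumors without this limit. Irf7 passed there (log2 fold change 3.46, edgeR adjusted p = 0.0144) and Gbp2 did not (3.08, edgeR adjusted p = 0.289).

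The difference in depth was within the spread between tumors. Median UMIs per cell were 5025, 2896, 3437, 7273.5, 5624 and 3378 in high cells and 5928, 4062, 5294.5, 6372.5, 4673 and 4447.5 in below-median cells, a mean difference of -524 (SD 1169, n = 6, exact two-sided sign-flip permutation p = 0.25). High cells had fewer UMIs in 4 of 6 tumors, including the 3 that entered the test. Genes per cell differed by -101 (SD 213, n = 6, exact permutation p = 0.313) and the mitochondrial share by -0.0185 percentage points (SD 0.612, n = 6, exact permutation p = 0.969). The smallest p that 6 tumors allow is 0.0313. With each cell thinned to 1000 UMIs before scoring, 15 genes were higher and 2 lower of 1737 tested.

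With every tumor in the fit, whatever its number of high cells, 2404 genes were tested, 16 were higher (0.666%) and 1 was lower (0.0416%), and 13 of the 33 tested interferon-list genes were among the higher. The 16 were Gbp2, Usp18, Irf7, AW112010, Rtp4, Oasl2, Xaf1, Slfn2, Ifi27l2a, Ube2l6, Psmb8, Ifi35, H2-T22, Lgals3bp, Bst2 and Ly6e, and the lower gene was Hmgb2. Of these 16, 14 were also called in the 3 tumors. Gbp2 had a log2 fold change of 3.36 (SE 0.30) and Irf7 of 3.06 (SE 0.32). Without mouse 1232 this fit called 3 genes and without mouse 1172 it called 10.

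The subtypes were compared with all 6 tumors, since mouse 593 was the only eRT with 10 high cells. The difference between high and below-median cells did not differ detectably between eRT and MYC spinal for any of 3544 genes (0%, with 97 at an unadjusted p under 0.05 by edgeR, and 0 called by DESeq2 with 40 unadjusted). For Irf7 the interaction was 0.01 on the log2 scale (SE 0.49) and for Gbp2 -1.39 (SE 0.57). Within high cells, 0 of 701 genes (0%) differed between eRT and MYC spinal, with 13 at an unadjusted p under 0.05 by edgeR, and 0 called by DESeq2 with 91 unadjusted. The 4 score genes are not read here, since the rule set their level within each tumor. For Irf7 the log2 difference was -0.03 (SE 0.98). Standard errors of this size leave differences of several fold undetected, so these values do not show that the subtypes were alike.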

How the data were processed

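Single-cell RNA-seq of 6 tumors was analysed. The authors dissociated tumors enzymatically, sorted out dead cells, prepared 10x Genomics 3′ v2 libraries, aligned reads to mm10 with Cell Ranger (2.0.2 in the submitters' processing notes) and deposited whole-number UMI counts per gene and cell, not normalized, 1 table per tumor. Cell names held no barcodes, so barcodes shared between libraries could not be counted. Kept cells numbered 22163, with 3841706 to 26184224 UMIs per tumor. Per-sample columns not used numbered 0.

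UMI counts were summed per tumor and cell group. The 4 score genes were left out of library sizes and tests between high and below-median cells. edgeR 4.0.16 (TMM, filterByExpr, glmQLFit, glmQLFTest, tumor as a block) was run, with Benjamini-Hochberg adjustment at 0.05 over all tested genes. High and below-median cells of a tumor come from the same animal, and their deviations from the group means correlated at 0.65, 0.70 and 0.70 in mice 1172, 1232 and 593. The subtype tests had been designed for at least 2 tumors per subtype with 10 high cells, and every tumor was used in their place. DESeq2 1.42.0, filters, cuts, scores, thinning and left-out tumors were alternatives. Scrublet (scanpy 1.11.5) marked 33 of 22163 cells as doublets, which is too small a number for it to have worked. All cells were therefore kept, and an alternative dropped the 843 cells scoring highest. R was 4.3.3 and Python 3.11.15. The tests were checked on simulated data.

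Named genes were those of the gene lists and, per direction, the 12 largest changes past the threshold with the same sign in every tested tumor and a mean log2 CPM of at least 5. Of the genes outside the lists, Slfn2, Ptn, S100a5 and Lgals3bp were named after their values were seen. The cells, lists and tests were chosen with earlier results of these data known. Values of 1 called gene are not reported here. Promoters came from RefSeq (GRCm38.p6). Intervals and limits cover counting error only.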

Additional observations from a re-analysis of the deposited data

How the results depend on the processing

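Low cell numbers set the limits. Tumors 1177, 1148 and 568 have 2 to 7 high cells, a gene at 1 UMI per group cannot be followed, and in summed counts fewer expressing cells and less RNA per cell cannot be told apart.

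Against 35 genes called (24 interferon-list genes higher), the counts were 57 with DESeq2, where the median of all tested genes moved from -0.0024 to 0.11, 230 (43) with every gene of at least 1 UMI tested, 14 (11) at the 80th percentile (5 tumors, all but mouse 1177), 87 at the 95th (mice 1232 and 593 alone), 60 with a score without Ifitm3, 6 (4) with Ifitm3 alone, 17 (10) after thinning to 1000 UMIs, 20 (15) when cells were chosen on 50% of their UMIs and tested on the rest, 6 (2) without any UMI of the 3 immune genes and 60 with 4 of the 6 tumor genes required (both in mice 1232 and 593 alone), and 17 (13) with every tumor, which became 16 without mouse 568. Where mouse 1172 was lost, the fit to compare with is that of the other 2 tumors, 182 (27). Over the fits that left out 1 tumor, of 3 or of 6, they ran from 3 to 182 (2 to 42). With every tumor and a score without Ifitm3, 14 interferon-list genes were higher, in an alternative chosen after seeing the data, as were the leave-one-out fits over 6 tumors. No interferon-list gene was called lower in any of these fits.

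Without the tumor block, 0 genes were called (0 interferon-list genes, edgeR, 45 at an unadjusted p under 0.05). With every gene of at least 1 UMI, the interaction with subtype had 12 calls and the subtype difference within high cells 71. Leaving out 1 tumor gave 0 to 13 calls for the interaction.

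The depth values changed sign in some settings. With a score without Ifitm3 the differences were 282 UMIs and 156 genes per cell, and with the 80th percentile the difference in genes was -110 (exact permutation p = 0.0313, lower in 6 of 6 tumors). The mitochondrial difference was 0.21 at the 80th percentile, 0.10 with a score without Ifitm3, 0.00285 under a stricter cell filter, and -0.23 to 0.11 with 1 tumor left out.

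Of single genes, S100a5 turned to -0.12 with a score without Ifitm3, and to -0.28 with that score and every tumor, where Dcn was at -0.22 and Ptn at -0.051. B2m was at -0.023 without any UMI of the immune genes. Irf9 was at -0.44 at the 95th percentile. With 1 tumor left out, Irf9 ran from -0.13 to 0.51. In the fits over 6 tumors that left out 1, Dcn was at -0.0945 without mouse 1172 and -0.015 without mouse 593, and S100a5 at -0.10 without mouse 1232. The cause of these changes was not tested.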

Other observations

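Ribosomal protein genes were listed after the values of these tests were seen, so their counts are a description. Of the 80 tested Rpl and Rps genes, 80 had a log2 fold change below 0 between high and below-median cells in the 3 tested tumors, with a median of -0.37 against -0.0024 over all genes. By edgeR 0 of them were called and 53 were lower at an unadjusted p under 0.05, as were 229 of all 4580 genes (5%), while DESeq2 called 17 lower among its 21 lower genes. Without TMM factors 78 of the 80 were below 0, with a median of -0.29 against 0.09 over all genes, and with every tumor 78 of the 80 were below 0.

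These genes took 12.5% of the UMIs of high cells and 15.0% of those of below-median cells in mouse 1172, 19.7% and 24.8% in mouse 1232, and 21.7% and 26.2% in mouse 593. In the tumors outside the test the shares were 16.0% and 17.0% in mouse 1148, 27.2% and 28.5% in mouse 568, and 29.4% and 28.9% in mouse 1177. The share was thus lower in high cells in 5 of 6 tumors. Median UMIs per cell were lower in high cells in the 3 tested tumors as well, and their part in this difference was not tested. The shares of all genes of a cell add up to a fixed total, so a higher share of some genes lowers that of the rest. The part of this in the difference was not tested either.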
